A study of Mus musculus with 8 samples.

Results

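The genes of the constitutive proteasome were followed in RNA from tumour neutrophils sorted by the surface adhesion molecule CD54, also called ICAM1. The members were the genes whose symbol is Psma, Psmb, Psmc or Psmd followed by a number, without the inducible catalytic genes Psmb8, Psmb9 and Psmb10, and with 10 or more estimated counts in 4 or more libraries. Of 36 such symbols 34 passed, out of 25572 genes in the table. The 2 that did not pass were Psma8, a testis-specific alpha subunit, and Psmb11, a thymus-specific catalytic subunit. There were 4 libraries of CD54-positive cells (ICAM1-high) and, set against them, 4 of CD54-negative cells (ICAM1-low), and in each group they carry the numbers 1, 2, 3 and 5. All 8 came from neutrophils that had infiltrated PyMT-N tumours in mice given as C57/B6, and the labels name no genotype, treatment or age that separates the groups. Each library was made from 150 pg of total RNA with a kit for very small samples, and nothing in the labels says whether animals were pooled. Whether the 4 libraries of a group stand for 4 mice is not stated either, and a p-value here therefore speaks only of library-to-library spread, which may be technical.

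The proteasome is the large protease that degrades proteins tagged with ubiquitin. Its barrel-shaped core is built from outer rings of alpha subunits, which gate the entrance, and inner rings of beta subunits, some of which cut peptide bonds. A regulatory particle caps the core: in its base a ring of ATPases unfolds the substrate and threads it into the barrel, and its lid removes the ubiquitin chain. Because the parts are used in fixed proportions, their genes are known for being expressed in nearly all cells and for rising together when proteasome activity is short. In immune cells exposed to interferon-gamma, inducible catalytic subunits replace the constitutive ones and change which peptides are made for MHC class I.

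Library totals ran from 15940080 to 21824788 counts. The labelled cell type was checked against its markers: 15 neutrophil markers summed to 1520 to 4630 CPM (counts scaled to library size) in CD54-positive and 7690 to 31300 CPM in CD54-negative libraries, while 17 macrophage markers summed to 5760 to 16400 CPM in CD54-positive and 835 to 1180 CPM in CD54-negative libraries. In every CD54-positive library the macrophage sum was above the neutrophil sum, against the labelled cell type. Of the neutrophil markers 11 were above 1 CPM in all 4 CD54-positive and 13 in all 4 CD54-negative libraries, and Mpo was at 0 in all CD54-negative ones. Of 13 neutrophil markers tested 7 were past the threshold lower in CD54-positive cells and 0 higher, and all 13 estimates were below 0. Of the macrophage markers 11 of 17 tested were higher in CD54-positive cells and none lower. Summed dendritic cell markers stood at 3350 to 6920 CPM in CD54-positive and 237 to 533 CPM in CD54-negative libraries, those of T and NK cells at 91.2 to 426 and 3.68 to 60.3 CPM, those of B and plasma cells at 307 to 2250 and 54.7 to 439 CPM, and those of monocytes at 3070 to 4670 and 8630 to 15100 CPM, each with CD54-positive before CD54-negative libraries. The monocyte list was split gene by gene. Of its 9 genes 3 were past the threshold higher in CD54-positive cells and 1 lower, with 4 estimates above 0 and 5 below. Icam1 itself was not past the threshold (log2 fold change 0.67 ± 0.92, SE; edgeR adjusted p = 0.754). It stood at 42.4 to 122 CPM in CD54-positive libraries, at 4.31 to 18.7 CPM in CD54-negative libraries 1, 2 and 3, and at 138 CPM in the library labelled CD54-negative 5. That library goes against its label in Icam1 RNA, although the sort was on protein, so counts below are also given without it. Its marker sums went with its label. The neutrophil sum was the highest of all, 31300 CPM, and the macrophage and dendritic sums, 1180 and 533 CPM, lay below every CD54-positive library. Summed markers of fibroblasts stood at 682 to 3000 CPM in CD54-positive and 2100 to 3870 CPM in CD54-negative libraries. Of these 10 genes 9 had estimates below 0, and 1 was past the threshold lower in CD54-positive cells. In bulk RNA, fewer cells of a type and less RNA per cell cannot be told apart.

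No constitutive proteasome gene was higher or lower in CD54-positive cells past the threshold, in the core, among the ATPases or in the lid. Of 34 members tested 0 rose and 0 fell (edgeR's quasi-likelihood test over 13575 genes, with a Benjamini-Hochberg adjusted p under 0.05 for a call), where 1.22% of all genes rose and 0.273% fell, 1.5% in all. At an unadjusted p under 0.05 the count was 0 of 34 members against 16.9% of all genes. No member had groups that did not overlap, a pattern that 7.51% of all genes showed with CD54-positive higher and 3.89% with CD54-positive lower. By DESeq2 and by limma-voom the count of members past the threshold was also 0, and at an unadjusted p under 0.05 it was 0 and 1 in that order. The estimates leaned upwards all the same: 27 of 34 log2 fold changes were above 0, or 79.4%, against 47.7% of all genes. The members' median log2 fold change was 0.31, that of all genes was -0.07, and that of 76 cytosolic ribosomal protein genes was 1.01. The shift in markers of several cell types given above runs along the same contrast, and its part in these estimates was not tested. Without the library labelled CD54-negative 5 the median was 0.18 over the members and 0.07 over all genes, and 24 of 34 members were above 0. Without both libraries numbered 5 it was 0.11 over the members and 0.01 over all genes, and 20 of 34 were above 0.

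The precision of the single estimates sets what can be said of each gene. The standard errors of the members ran from 0.40 to 0.78 on the log2 scale, with a median of 0.52. The 95% interval lay inside a 4-fold change either way for 31 members, and reached beyond a 4-fold increase for Psmb2, Psmc5 and Psmd10. A 2-fold increase lay outside the interval for 4 members and a 2-fold decrease for 23. When changes were simulated on these libraries, the test called 0 of 50 genes altered 2-fold. It called 3 of 50 altered 4-fold and 22 of 50 altered 8-fold. The altered genes were drawn from all genes averaging above 50 counts, not from the members. The median standard error of all genes was 0.76, wider than that of the members. How large a change of a single subunit could be detected was therefore not tested.

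**Figure D1:**
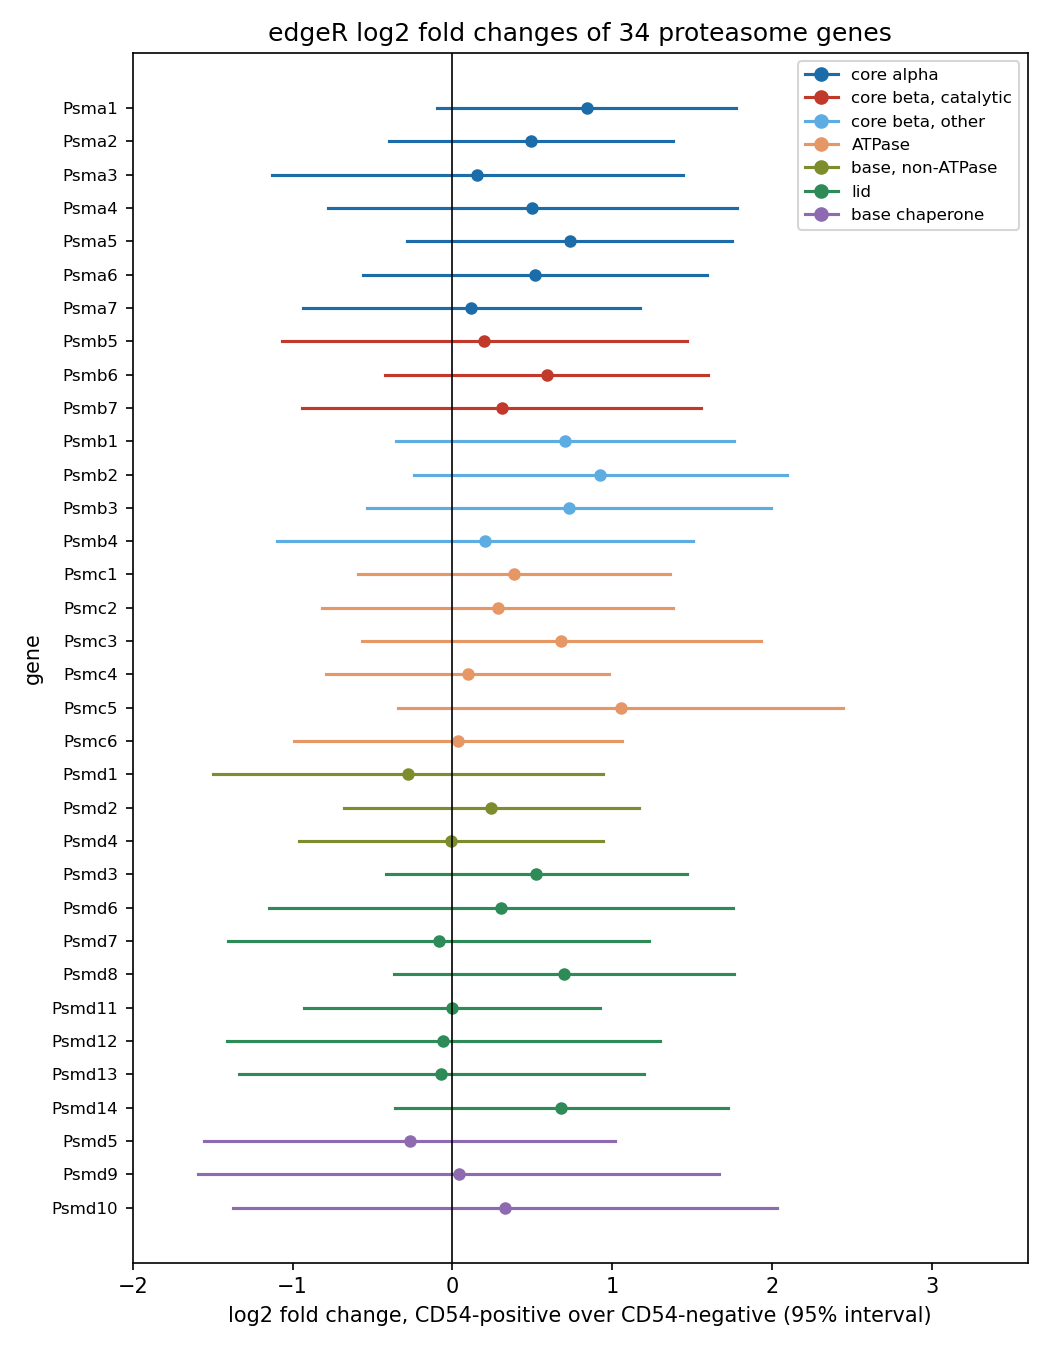
Log2 fold change of each of the 34 proteasome genes, CD54-positive over CD54-negative, on the horizontal axis, with 95% intervals from edgeR (4 against 4 libraries) and colours for the role. The intervals of all 34 genes cross 0, the 14 core and 6 ATPase estimates lie to the right of it, and 7 of the 14 Psmd estimates lie to each side.

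Levels differed far more between subunits than between groups. On the scale of CPM per kilobase of the deposited gene length, and as a median over the 8 libraries, the levels ran from 231 for Psmb7 and 225 for Psma1 to 9.51 for Psmd10 and 5.98 for Psmd9. The last of these encode base assembly chaperones, which help to build the ATPase ring and are not parts of the finished particle. Among genes whose products take 1 place each in the same ring, the alpha genes ran from 225 for Psma1 over 56.0 for Psma3 and 50.1 for Psma5 to 13.2 for Psma4. The ATPase genes lay closer together, from 54.8 for Psmc4 and 47.7 for Psmc3 to 24.7 for Psmc2 and 17.4 for Psmc6. In the lid the order ran from 123 for Psmd8 and 99.5 for Psmd6 to 14.3 for Psmd7. The ranges over 8 libraries of each pair of neighbours in the order of all 34 members overlapped, and the range of a single gene over the libraries was 1.76-fold for Psmc4 at the narrowest and 19.3-fold for Psmd6 at the widest.

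**Figure D2:**
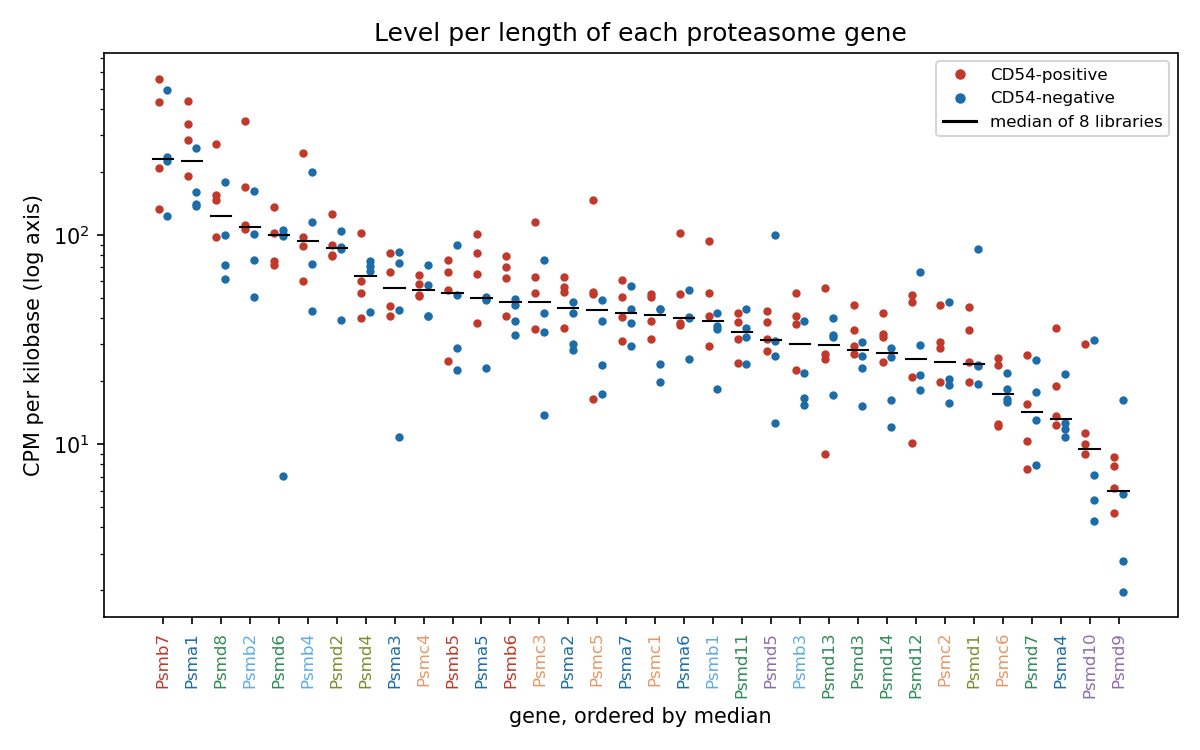
Level of each proteasome gene in CPM per kilobase on a log axis, with genes ordered by their median over 8 libraries (black line), coloured by role on the axis, and with CD54-positive points left of CD54-negative points. Psmb7 and Psma1 have the highest medians at 231 and 225, Psmd10 and Psmd9 the lowest at 9.51 and 5.98, and the colours of the 2 groups overlap for every gene.

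In the core, all 14 estimates were above 0, under each of the 4 scalings tried, and none passed the threshold (edgeR adjusted p from 0.345 to 0.926), with a median log2 fold change of 0.51. Summed over the 14 genes, the core stood at 1960, 1490, 893 and 1280 CPM in CD54-positive libraries 1, 2, 3 and 5, and at 875, 889, 1400 and 716 CPM in CD54-negative ones. CD54-positive library 3 and CD54-negative library 3 were the pair in which the order turned. Without both libraries numbered 5, 10 of the 14 core estimates were above 0. The 7 alpha genes, whose products form the gated outer rings, summed to 670 ± 172 CPM in CD54-positive and 432 ± 99.9 CPM in CD54-negative libraries (SD, n = 4 each). Psma1 (ENSMUSG00000030751) had the smallest p of all members. It stood at 476, 311, 209 and 371 CPM in CD54-positive and at 176, 154, 284 and 151 CPM in CD54-negative libraries. The groups overlapped through CD54-positive library 3 and CD54-negative library 3, and the log2 fold change was 0.84 ± 0.43 (SE, n = 4 against 4; edgeR adjusted p = 0.345). Psma5 stood at 90.9, 113, 42.1 and 72.8 CPM in CD54-positive and at 56.3, 55.1, 54.4 and 25.7 CPM in CD54-negative libraries, with an estimate of 0.73 ± 0.47 (log2; edgeR adjusted p = 0.449). Here CD54-positive library 3 lay below CD54-negative libraries 1, 2 and 3. The other alpha genes had log2 fold changes of 0.52 for Psma6, 0.50 for Psma4, 0.49 for Psma2, 0.16 for Psma3 and 0.12 for Psma7. Psma3 reached from 41.0 to 81.2 CPM in CD54-positive and from 10.8 to 82.2 CPM in CD54-negative libraries, lowest in the library labelled CD54-negative 5. The table also lists a pseudogene of Psma5, and reads of close copies may be split between them, so the value of Psma5 is uncertain.

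The beta genes without a catalytic site had the highest median of the core groups, 0.72, with 4 estimates above 0. Psmb2 stood at 246, 119, 74.5 and 78.2 CPM in CD54-positive and at 52.9, 70.7, 114 and 35.2 CPM in CD54-negative libraries. The log2 fold change was 0.93 ± 0.53 (SE; edgeR adjusted p = 0.408), and CD54-negative library 3 lay above 2 of the 4 CD54-positive libraries. Psmb3 was the only member higher in CD54-positive cells in all 4 same-numbered pairs, which 14.7% of all genes were. It stood at 22.3, 13.5, 24.5 and 31.4 CPM in CD54-positive and at 13.0, 9.19, 23.1 and 9.91 CPM in CD54-negative libraries, with an estimate of 0.73 ± 0.58 (log2; edgeR adjusted p = 0.556). Psmb1 had a log2 fold change of 0.71 ± 0.48 and ran from 46.4 to 147 CPM in CD54-positive and from 29.0 to 66.7 CPM in CD54-negative libraries. Psmb4, the fourth of them, had 0.21 ± 0.59.

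**Figure D3:**
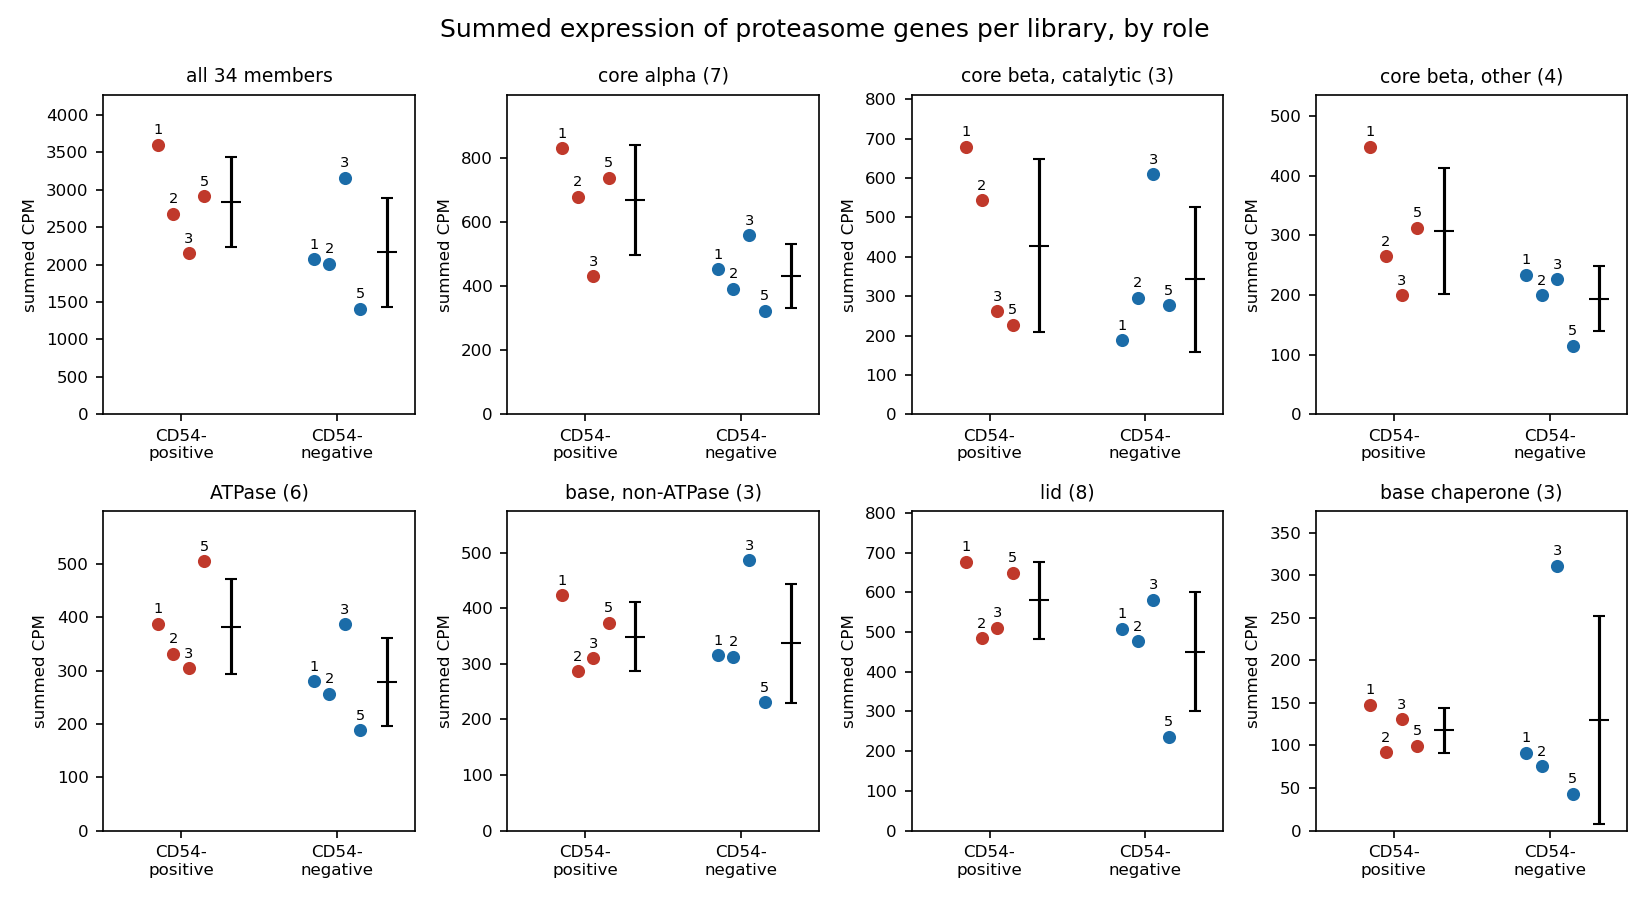
Summed CPM per library of all 34 proteasome genes and of each role, with the number of genes in brackets, CD54-positive left of CD54-negative, the replicate number at each point and the mean ± SD of 4 libraries beside it. All 34 genes sum to 2150 to 3600 CPM in CD54-positive and 1410 to 3160 CPM in CD54-negative libraries, and in every panel the groups overlap.

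The 3 constitutive catalytic genes are Psmb5, Psmb6 and Psmb7, whose products cut after hydrophobic, acidic and basic residues in that order. Interferon-gamma-inducible counterparts take their places in the immunoproteasome: Psmb8 that of Psmb5, Psmb9 that of Psmb6 and Psmb10 that of Psmb7. The sequences before the gene starts are shown because the pairs are compared below. They are the 250 bases upstream of the start in RefSeq's table of build GRCm38.p6, 5′ to 3′, with capitals for TGANNNNGC in Psmb5, Psmb6 and Psmb9 (the core of the antioxidant response element, the type of site that Nfe2l1 and Nfe2l2 bind) and for TTCNNNGAA in Psmb8 (the core of the GAS element, which STAT factors bind). Those of the constitutive genes are at chr14:54617996-54618245 on the minus strand and chr11:70525107-70525356 on the plus strand. Those of the inducible genes are at chr17:34197945-34198194 on the plus strand, chr17:34187331-34187580 on the minus strand and chr8:105938393-105938642 on the minus strand.
Psmb5: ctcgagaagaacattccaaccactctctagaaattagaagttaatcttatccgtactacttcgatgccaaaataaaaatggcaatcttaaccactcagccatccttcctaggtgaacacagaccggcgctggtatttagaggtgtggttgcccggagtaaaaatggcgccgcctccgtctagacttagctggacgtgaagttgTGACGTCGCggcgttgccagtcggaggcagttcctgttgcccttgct
Psmb6: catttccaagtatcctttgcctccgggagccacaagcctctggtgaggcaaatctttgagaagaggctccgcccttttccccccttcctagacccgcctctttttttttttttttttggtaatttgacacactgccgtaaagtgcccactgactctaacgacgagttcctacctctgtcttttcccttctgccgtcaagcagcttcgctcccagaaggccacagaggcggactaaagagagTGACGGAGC
Psmb8: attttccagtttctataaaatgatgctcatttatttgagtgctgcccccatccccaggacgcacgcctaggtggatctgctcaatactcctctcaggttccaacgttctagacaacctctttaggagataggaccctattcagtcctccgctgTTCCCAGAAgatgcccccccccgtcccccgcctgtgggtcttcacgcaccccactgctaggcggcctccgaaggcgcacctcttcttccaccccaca
Psmb9: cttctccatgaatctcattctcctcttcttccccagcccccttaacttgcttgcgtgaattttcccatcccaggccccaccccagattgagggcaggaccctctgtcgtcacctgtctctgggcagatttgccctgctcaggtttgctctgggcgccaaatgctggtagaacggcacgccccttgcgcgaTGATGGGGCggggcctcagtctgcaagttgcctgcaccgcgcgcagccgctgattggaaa
Psmb10: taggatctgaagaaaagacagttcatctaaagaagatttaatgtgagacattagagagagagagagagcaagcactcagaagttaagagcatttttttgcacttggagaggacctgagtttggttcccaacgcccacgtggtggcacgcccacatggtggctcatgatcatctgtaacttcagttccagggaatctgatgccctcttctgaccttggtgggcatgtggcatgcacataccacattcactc
Psmb10 held neither motif on either strand, and Psmb7 was not matched. Over 28 matched members TGANNNNGC was found on either strand for 11, or 39.3%, against 35.2% of 32851 promoters of the same length, and TTCNNNGAA for 0, against 7.02%. Members were counted by gene and all promoters singly, without matching for base composition. A match is a description of these letters only.

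Psmb5 stood at 50.4, 36.1, 16.6 and 44.2 CPM in CD54-positive and at 34.4, 15.1, 59.6 and 19.2 CPM in CD54-negative libraries. The log2 fold change was 0.20 ± 0.58 (SE, n = 4 against 4; edgeR adjusted p = 0.897), and both the lowest and the highest library were CD54-negative. Psmb6 stood at 37.1, 47.3, 24.4 and 41.9 CPM in CD54-positive and at 23.0, 29.6, 27.5 and 19.8 CPM in CD54-negative libraries, an estimate of 0.59 ± 0.46 on the log2 scale (edgeR adjusted p = 0.551). Only CD54-positive library 3 fell within the CD54-negative range. Psmb7 stood at 592, 460, 221 and 141 CPM in CD54-positive and at 131, 251, 522 and 238 CPM in CD54-negative libraries, an estimate of 0.31 ± 0.57 on the log2 scale (edgeR adjusted p = 0.825). Its range was as wide inside each group as between them.

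The inducible genes had larger estimates, and 0 of 3 passed the threshold in edgeR. At an unadjusted p under 0.05 the count was 1 of 3, where the share of all genes was 16.9%. Past the threshold the count was 0 by DESeq2 and 1 by limma-voom. Psmb8 stood at 93.2, 90.5, 57.9 and 200 CPM in CD54-positive and at 23.3, 18.7, 8.15 and 65.0 CPM in CD54-negative libraries. All 4 same-numbered pairs were higher in CD54-positive cells, which held for 14.7% of all genes, and such libraries were not shown to be pairs. The groups touched only through the library labelled CD54-negative 5. The log2 fold change was 1.94 ± 0.66 (SE, edgeR adjusted p = 0.173). Psmb8 was past the threshold with limma-voom (adjusted p = 0.0316), whose sample weights were lowest, at 0.33, for the library labelled CD54-negative 5. Without that library Psmb8 was past it too (edgeR adjusted p = 0.0338), so these results are not independent of each other. Over all 17 alternatives the adjusted p ran from 0.0316 to 0.359. Psmb9 and Psmb10 had log2 fold changes of 1.08 ± 0.59 and 1.76 ± 0.90 (edgeR adjusted p = 0.38 and 0.347). The estimate of Psmb10 was 0.72 without CD54-positive library 5, where it stood at 104 CPM against 11.3 to 25.5 CPM in the other CD54-positive libraries, and 0.40 without both libraries numbered 5. The summed markers of macrophages, dendritic cells, T and NK cells, and B and plasma cells given above were also higher in CD54-positive cells in 4 of 4 pairs, and their part in the inducible genes was not tested.

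The balance of inducible to constitutive subunit was taken within each library as a ratio of counts per length, which does not depend on the scaling between libraries. Psmb8 over Psmb5 was 1.66, 2.25, 3.14 and 4.06 in CD54-positive and 0.606, 1.11, 0.123 and 3.03 in CD54-negative libraries 1, 2, 3 and 5. The difference of mean log2 ratios was 1.89 with 4 of 4 pairs higher in CD54-positive cells, and it did not pass the threshold (exact permutation test, two-sided, 70 assignments, p = 0.0857 and, adjusted for 3 ratios, 0.257, where the smallest p that this design can give is 0.0286, which becomes 0.0857 after adjustment unless another ratio is as extreme, so a single ratio could not pass). Without the library labelled CD54-negative 5 the groups did not overlap, with a difference of 2.59 (exact permutation test, adjusted p = 0.0857). That is the most extreme arrangement of those libraries, so this ratio alone could not have passed there either. Without CD54-negative library 3, the lowest, the difference was 1.05 (exact permutation test, adjusted p = 0.514). Psmb9 over Psmb6 was 1.74, 0.92, 0.857 and 1.57 in CD54-positive and 0.612, 0.378, 0.813 and 2.25 in CD54-negative libraries. The difference was 0.59 with 3 of 4 pairs higher in CD54-positive cells (exact permutation p = 0.371, adjusted p = 0.371). The highest value was that of the library labelled CD54-negative 5, and without it the difference was 1.08 (exact permutation test, adjusted p = 0.0857), while it ran from 0.22 to 0.75 with any other single library left out. Psmb10 over Psmb7 was 0.0537, 0.0796, 0.0736 and 1.05 in CD54-positive and 0.296, 0.083, 0.0088 and 0.018 in CD54-negative libraries. The difference was 1.6 with 2 of 4 pairs higher in CD54-positive cells (exact permutation p = 0.371, adjusted p = 0.371). Without CD54-positive library 5, the only one above 0.296, the difference was 0.62 (exact permutation test, adjusted p = 0.714).

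**Figure D4:**
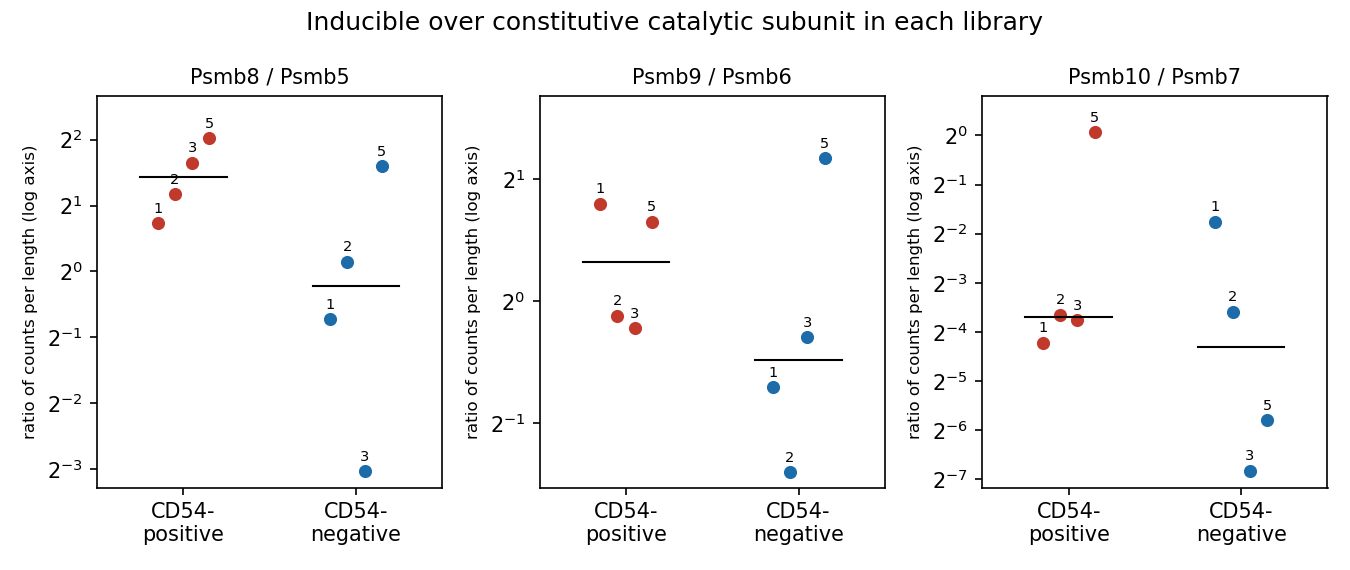
Ratio of each inducible to its constitutive catalytic gene, as counts per length on a log axis, in each library, with CD54-positive left of CD54-negative, the replicate number at each point and the group's median as a line. Psmb8 over Psmb5 lies between 1.66 and 4.06 in CD54-positive libraries and under 1.66 in CD54-negative ones except replicate 5 at 3.03.

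The 6 ATPase genes, which encode the unfolding motor at the mouth of the core, all had estimates above 0 with a median of 0.33 (with RLE scaling 5 of 6, Psmc6 being at -0.03), and 0 of 6 passed the threshold (edgeR adjusted p from 0.429 to 0.977). Their sum was 388, 332, 305 and 505 CPM in CD54-positive and 280, 257, 387 and 188 CPM in CD54-negative libraries. CD54-negative library 3 lay inside the CD54-positive range. Psmc5 had the largest estimate of all members, 1.05 ± 0.64 (SE; edgeR adjusted p = 0.429), and was 0.34 without CD54-positive library 5: it stood at 19.9, 64.6, 63.5 and 178 CPM in CD54-positive and at 59.6, 47.2, 29.2 and 21.0 CPM in CD54-negative libraries. The lowest as well as the highest of these 8 values was CD54-positive. Psmc3 stood at 149, 81.4, 45.7 and 68.2 CPM in CD54-positive and at 44.2, 54.9, 97.8 and 17.8 CPM in CD54-negative libraries, an estimate of 0.68 ± 0.57 on the log2 scale (edgeR adjusted p = 0.577). Psmc1, Psmc2, Psmc4 and Psmc6 had log2 fold changes of 0.38, 0.29, 0.10 and 0.03. Psmc4 was the steadiest member, at 53.7 to 67.5 CPM in CD54-positive and 42.8 to 75.2 CPM in CD54-negative libraries.

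Among the 14 Psmd genes 7 estimates were above and 7 below 0, with a median of 0.02, and 0 of 14 passed the threshold (edgeR adjusted p from 0.494 to 0.998). This even split belongs to the TMM scale used throughout: with RLE scaling 6 of the 14 were above 0, and with upper-quartile scaling and with library sizes only 12 were, while the median of all genes moved to -0.13, 0.06 and 0.17 under these scalings in that order. The base genes that are not ATPases encode the scaffolds and ubiquitin docking sites of the cap. Psmd1, a scaffold, had -0.28 ± 0.56, Psmd2, which holds ubiquitin shuttles, 0.24 ± 0.42, and Psmd4, a ubiquitin receptor, -0.01 ± 0.44 (log2 fold change ± SE). Psmd2 ran from 161 to 257 CPM in CD54-positive and from 80.0 to 212 CPM in CD54-negative libraries. Psmd1 stood at 119, 52.0, 64.9 and 92.5 CPM in CD54-positive and at 61.7, 50.9, 224 and 62.6 CPM in CD54-negative libraries, and its negative sign came with CD54-negative library 3, since without that library it was 0.49.

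The lid carries the deubiquitinase Psmd14, its partner Psmd7 and the scaffold subunits Psmd3, Psmd6, Psmd8, Psmd11, Psmd12 and Psmd13. The 8 lid genes summed to 677, 484, 511 and 649 CPM in CD54-positive and to 508, 477, 581 and 236 CPM in CD54-negative libraries. The lowest was the library labelled CD54-negative 5. Psmd14 stood at 45.2, 33.0, 43.4 and 56.9 CPM in CD54-positive and at 38.4, 35, 21.7 and 16.1 CPM in CD54-negative libraries, an estimate of 0.68 ± 0.48 on the log2 scale (edgeR adjusted p = 0.497). Psmd8 stood at 323, 185, 116 and 174 CPM in CD54-positive and at 85.5, 119, 213 and 73.0 CPM in CD54-negative libraries, an estimate of 0.70 ± 0.49 on the log2 scale (edgeR adjusted p = 0.494). In both genes the groups overlapped. Psmd3 had 0.53 and Psmd6 0.31 on the log2 scale. The remaining lid genes lay near 0, with -0.003 for Psmd11, -0.06 for Psmd12, -0.07 for Psmd13 and -0.09 for Psmd7. Psmd6 stood at 174, 91.6, 131 and 95.6 CPM in CD54-positive and at 126, 135, 129 and 9.03 CPM in CD54-negative libraries. Only the library labelled CD54-negative 5 stood apart, and the log2 fold change without that library was -0.07.

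The base assembly chaperones Psmd5, Psmd9 and Psmd10 had log2 fold changes of -0.27, 0.04 and 0.33 in that order, with SE of 0.59, 0.75 and 0.78, the last 2 being the widest of the 34 members. Each peaked in CD54-negative library 3. Psmd5 stood at 91.3, 65.9, 103 and 75.4 CPM in CD54-positive and at 73.6, 62.6, 237 and 30.1 CPM in CD54-negative libraries. Psmd9 stood at 18.1, 12.9, 16.5 and 9.77 CPM in CD54-positive and at 12, 5.75, 33.8 and 4.12 CPM in CD54-negative libraries. Without CD54-negative library 3, the log2 fold changes of Psmd5, Psmd9 and Psmd10 were 0.59, 0.97 and 1.43, and none passed the threshold.

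Part of the variation was shared by most members: 26 of 34 stood above their own mean over the 8 libraries in CD54-positive library 5, 24 in CD54-positive library 1 and 24 in CD54-negative library 3, against 3 in the library labelled CD54-negative 5. The library labelled CD54-negative 5 held the lowest value of 17 of the 34 members and CD54-negative library 2 that of 8, while CD54-positive libraries 5 and 1 held the highest value of 11 and 10, and CD54-negative library 3 that of 8. The same counts were not taken over all genes, so whether this pattern is particular to the members was not tested. The library labelled CD54-negative 5 also had the smallest total and the lowest TMM factor, 0.718. Over all genes it correlated with the other libraries at Pearson's r = 0.64 to 0.75. Across the 34 members, log2 CPM of CD54-positive library 1 correlated with that of CD54-negative library 3 at Pearson's r = 0.87 and with that of CD54-positive library 5 at 0.55. Over all 13575 genes these values were 0.72 and 0.83. Likewise CD54-positive library 5 and CD54-negative library 1 had r = 0.89 over the members and 0.69 over all genes. These correlations are descriptions across genes of the same libraries, and genes are not independent replicates.

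Psmb4, Psmc5 and Psmd12 carried 1 side of this pattern and Psmb7 and Psmd10 the other, a choice made after their values were seen. Psmb4 stood at 33.7, 49.1, 54.6 and 138 CPM in CD54-positive and at 111, 64.0, 24.0 and 40.5 CPM in CD54-negative libraries. Psmd12 stood at 15.3, 31.8, 72.2 and 78.0 CPM in CD54-positive and at 101, 44.8, 27.4 and 32.4 CPM in CD54-negative libraries. Both genes, like Psmc5 above, were low in CD54-positive library 1 and CD54-negative library 3 and high in CD54-positive library 5, although their products belong to the core, the lid and the ATPase ring. Psmb7 and Psmd10 were highest in CD54-positive library 1 and CD54-negative library 3, with Psmd10 at 38.9, 12.9, 11.5 and 14.6 CPM in CD54-positive and at 5.53, 6.94, 40.3 and 9.21 CPM in CD54-negative libraries. As a geometric mean on the log2(CPM + 1) scale, CD54-positive library 1 and CD54-negative library 3 together were 4.06-fold above CD54-positive library 5 and CD54-negative library 1 for Psmb7 and 4.02-fold for Psmd10. On the same scale they were at 0.236 of that level for Psmb4, 0.24 for Psmd12 and 0.241 for Psmc5. Promoters of Psmb4, Psmc5 and Psmd12, the lowest members on this measure, are printed, and their shared pattern follows from that choice. Other members were low there too, Psmd13 at 0.41 and Psma4 at 0.467 of that level among them. The sequences are again the 250 bases before the start in RefSeq's GRCm38.p6 table. They are at chr3:94886959-94887208 on the minus strand, chr11:106255935-106256184 on the plus strand and chr11:107479278-107479527 on the plus strand. Capitals mark TGANNNNGC and CCGGAAG on either strand, the second being the core of the site that ETS factors bind.
Psmb4: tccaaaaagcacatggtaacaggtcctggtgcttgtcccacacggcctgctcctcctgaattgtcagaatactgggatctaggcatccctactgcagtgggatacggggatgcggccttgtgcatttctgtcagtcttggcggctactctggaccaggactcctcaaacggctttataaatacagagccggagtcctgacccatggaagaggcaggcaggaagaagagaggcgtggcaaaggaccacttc
Psmc5: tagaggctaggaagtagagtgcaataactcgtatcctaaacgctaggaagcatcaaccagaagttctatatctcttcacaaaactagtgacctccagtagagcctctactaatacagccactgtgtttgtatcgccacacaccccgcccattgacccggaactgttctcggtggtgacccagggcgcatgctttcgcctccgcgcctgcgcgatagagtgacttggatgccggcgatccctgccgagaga
Psmd12: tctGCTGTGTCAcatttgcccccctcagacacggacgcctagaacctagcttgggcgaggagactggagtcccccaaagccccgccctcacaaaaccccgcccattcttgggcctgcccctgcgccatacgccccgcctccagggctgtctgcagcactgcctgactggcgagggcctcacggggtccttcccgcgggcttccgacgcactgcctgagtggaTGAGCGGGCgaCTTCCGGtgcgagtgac
Psmd12 held CCGGAAG and TGANNNNGC, and Psmb4 and Psmc5 held neither. Over the 28 matched members CCGGAAG was found on either strand for 9, or 32.1%, namely Psma6, Psmc1, Psmc2, Psmc6, Psmd2, Psmd4, Psmd6, Psmd11 and Psmd12, against 6.91% of all promoters of that length. GGGCGG, the box bound by Sp factors, was found for 17, or 60.7%, against 32.7%. CCAAT was found for 11, or 39.3%, against 33.8%, and TATAAA for 3, or 10.7%, against 12.4%. The core of the interferon-stimulated response element was found for 3, or 10.7%, against 2.98%, and TGANTCAGC, a stricter form contained in TGANNNNGC, for 0, against 1.02%. A member counted if any of its promoters held the letters, 30 promoters in all, whereas the other share counts single promoters. The promoters compared were not matched for base composition.

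**Figure D5:**
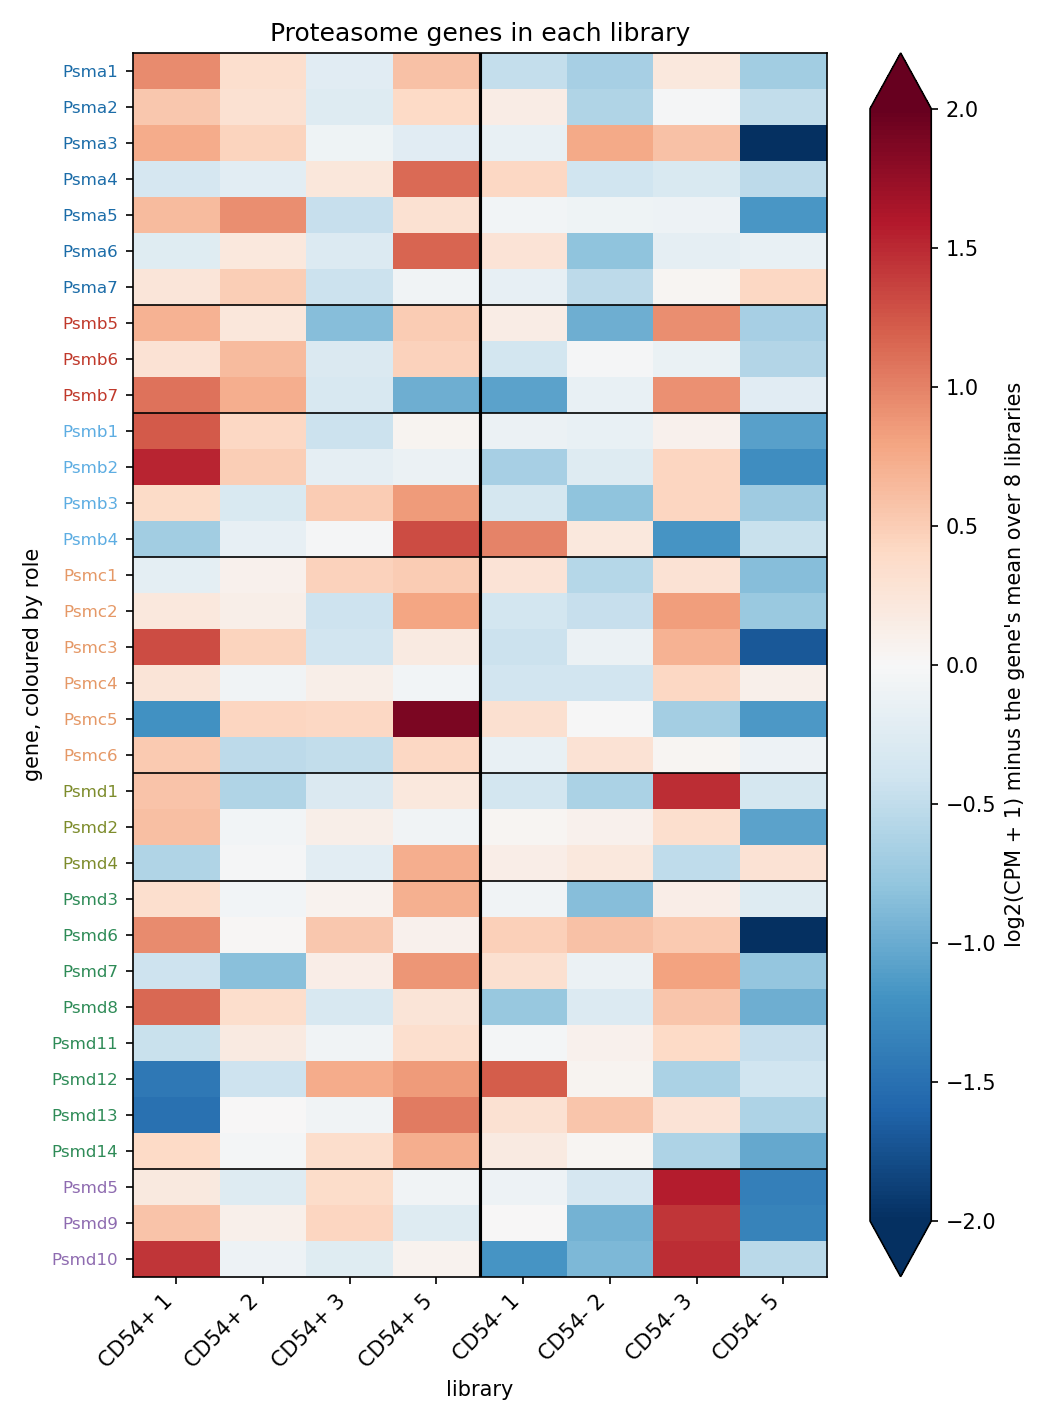
Level of each proteasome gene (rows, coloured by role) in each library (columns, CD54-positive left of CD54-negative) as log2(CPM + 1) minus the gene's mean over 8 libraries, with colours ending at 2 either way. CD54-negative 5 is low for most genes, and Psmb4, Psmc5 and Psmd12 are low in CD54-positive 1 and CD54-negative 3, where Psmb7 and Psmd10 are high.

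Other genes of the pathway were read from lists of proteins that open, build, feed or control the proteasome. The counts at an unadjusted p under 0.05, here and in the next paragraph, stand beside 16.9% of all genes. In lists this short they are descriptions only. Of 5 activator and inhibitor genes 0 passed the threshold (edgeR; 1 at an unadjusted p under 0.05), with a median log2 fold change of 0.99. Psme1, a subunit of the interferon-inducible activator ring, stood at 103, 120, 78.0 and 144 CPM in CD54-positive and at 45.1, 58.6, 65.7 and 36.3 CPM in CD54-negative libraries. Its groups did not overlap, a pattern that 7.51% of all genes showed with CD54-positive higher. The log2 fold change of Psme1 was 1.12 ± 0.41 (SE, edgeR adjusted p = 0.205). Its partner Psme2, whose reads may be shared with the near-copy Psme2b, had 0.99 ± 0.54, and the inhibitor Psmf1 1.17 ± 0.58. Of 12 proteins that bind the proteasome or carry substrates to it, 0 passed (edgeR; 1 at an unadjusted p under 0.05), with a median of 0.03. Usp14, a deubiquitinase docked on Psmd2, stood at 47.3, 87.7, 67.4 and 77.7 CPM in CD54-positive and at 30.7, 27.3, 24.8 and 28.2 CPM in CD54-negative libraries. The groups did not overlap, again set against 7.51% of all genes, and the log2 fold change of 1.34 ± 0.41 missed the threshold (edgeR adjusted p = 0.14). By DESeq2 it passed (adjusted p = 0.039), and over its 17 alternatives the adjusted p ran from 0.039 to 0.334.

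Of 5 tested core assembly genes 0 passed (edgeR; 0 at an unadjusted p under 0.05), with a median of 0.82; Pomp, the maturation factor of the core, had 1.10 ± 0.64. The 7 genes of transcriptional control had 0 passing (edgeR; 1 at an unadjusted p under 0.05) and 7 estimates below 0, with a median of -0.96. Over all genes 47.7% of estimates were above 0. Nfe2l1, the factor that induces proteasome genes when activity is short, stood at 30.5, 25.9, 80.2 and 93.4 CPM in CD54-positive and at 156, 119, 44.6 and 158 CPM in CD54-negative libraries. CD54-negative library 3 lay inside the CD54-positive range, and the log2 fold change was -1.05 ± 0.57 (edgeR adjusted p = 0.375). Maff, a small Maf partner of such factors, had -2.23 ± 0.96 and rests on the library labelled CD54-negative 5, with 5.89 to 13.9 CPM in CD54-positive libraries, 8.72 to 12.1 CPM in CD54-negative libraries 1, 2 and 3 and 154 CPM in that library. Nfe2l2 also peaked there at 2810 CPM. It stood at 301 to 756 CPM in CD54-negative libraries 1, 2 and 3 and at 537 to 1170 CPM in CD54-positive libraries. Mafk and Ngly1 peaked in the same library at 69.7 and 66.8 CPM, while Ddi2 and Mafg did not. Without that library the estimate of Nfe2l1 was -0.90. Of 9 genes of ubiquitin and the p97 unfoldase 0 passed (edgeR, 3 at an unadjusted p under 0.05, against 16.9% of all genes), with a median of -0.22. Ufd1, a cofactor of that unfoldase, had -1.07 ± 0.45. Of 10 genes of MHC class I and its peptide loading 0 passed (edgeR; 0 at an unadjusted p under 0.05), with a median of 0.43; B2m, the light chain, had 1.13 ± 0.57. Without the library labelled CD54-negative 5, B2m and the heavy chain gene H2-K1 passed (edgeR adjusted p = 0.0436 and 0.0355).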

How the data were processed

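RNA sequencing had been done on 8 libraries of sorted tumour neutrophils. The submitters' processing notes name Trim Galore 0.6.6, Salmon 1.9.0 and the mouse build GRCm39 (mm39); for annotation and settings, none is given in the sources used here. A single table of 25669 rows holds, as the authors deposited it, estimated counts of each gene and a gene length, of which 25572 identifiers were kept once each. The counts were rounded to whole numbers, filtered by edgeR's filterByExpr (13575 genes), scaled by TMM and fitted with edgeR 4.0.16 (quasi-likelihood, group as the only term, R 4.3.3). CPM values are rounded counts over TMM-adjusted library sizes, an SE is the log2 fold change over the square root of F, and levels between genes are CPM per kilobase. With 150 pg of RNA and no molecular identifiers mentioned, counts need not equal molecules. Alternatives were DESeq2 1.42.0, limma-voom with sample weights (limma 3.58.1), other scalings and filters, a replicate block and libraries left out. The fit was tested on simulated data. Every member was named, along with Icam1 and, from each pathway list, the genes past the threshold or otherwise the one with the smallest p; further genes were chosen after their values were seen. Some genes that this rule names are not reported here. The members and lists were chosen with earlier results of these data known. Promoters are RefSeq's for GRCm38.p6, matched by symbol for 28 of 34 members; this is not the build of the counts, and both strands were searched. Psmb7, Psmb1, Psmb2, Psmc3, Psmd3 and Psmd7 were not matched.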

Additional observations from a re-analysis of the deposited data

Results flagged for a closer look

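Values that stood apart within their own group of 4 libraries were sought with Dixon's test at its 95% critical value in 74 groups of values, and chance alone flags about 1 in 20. Single libraries stood apart in 8 of them. CD54-positive library 1 was high for Psmd10 at 38.9 CPM, with the others at 11.5 to 14.6 CPM, and CD54-positive library 5 was high for Psmb10 at 104 CPM, with the others at 11.3 to 25.5 CPM. CD54-negative library 3 was high for Psmd1 at 224 CPM (others 50.9 to 62.6), for Psmc2 at 82.3 CPM (others 27.0 to 35.3) and for Psmd10 at 40.3 CPM (others 5.53 to 9.21). The library labelled CD54-negative 5 was low for Psmd6 at 9.03 CPM (others 126 to 135) and for Psma5 at 25.7 CPM (others 54.4 to 56.3). CD54-negative library 1 was high for Psma4 at 23.7 CPM (others 11.9 to 13.9).

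Psma8, left out by the count minimum, had signal in 1 group only. It had 11, 20, 5 and 10 counts in CD54-positive libraries 1, 2, 3 and 5, 46 in all, and 0 counts in each CD54-negative library, at least 12.1-fold higher when scaled group sums are set against a floor of 3 counts over the group. Fitted with no filter it missed the threshold (edgeR adjusted p = 0.21). Psma8 is a close paralog of Psma7, and a sharing of reads between them was not tested. Psmb11 had 4 counts in CD54-negative library 2 and 0 in every other library.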

How the results depend on the processing

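No member passed the threshold under any of the 17 alternatives, and of 578 member estimates under them 507 kept their sign and 71 turned. The count of all genes higher in CD54-positive cells was 166, and 258 with library sizes only, 584 with DESeq2, 460 with limma-voom, 280 with the replicate block and 4 to 337 with 1 library left out. The count lower was 37, and 649 with DESeq2, 349 with limma-voom, 120 with no filter, 61 with a filter of 10 CPM in 4 libraries, 261 with the block, 190 without both libraries numbered 5 and 0 to 241 with 1 left out; the cause was not tested. The members' median was 0.18 to 0.57 with 1 library left out. The inducible catalytic list had 1 gene past the threshold, Psmb8, with limma-voom and with the block (adjusted p = 0.0352 in edgeR), and 0 to 1 with 1 library left out. Usp14 made the proteasome-bound list 1 with DESeq2. H2-K1 made the MHC class I list 1 without both libraries numbered 5, and it was 0 to 2 with 1 left out. Signs turned without both libraries numbered 5 for Psma3 (-0.03), Psma4 (-0.03), Psmb5 (-0.07), Psmb4 (-0.52), Psmc2 (-0.12), Psmc6 (-0.14) and Psmd9 (-0.10). With limma-voom they turned for Psmb4 (-0.19) and Psmc6 (-0.28), with RLE scaling and with DESeq2 for Psmc6 (-0.03) and Psmd9 (-0.01), and with the block for Psmc6 (-0.04) and Psmd5 (0.13). With upper-quartile scaling they turned for Psmd4 (0.13), Psmd7 (0.06), Psmd11 (0.14), Psmd12 (0.05) and Psmd13 (0.08). With library sizes only the same 5 genes had 0.23, 0.09, 0.20, 0.12 and 0.12. Psmd4 and Psmd11 had 0.01 each with no filter and 0.04 each with the stricter one. With 1 library left out, the log2 fold changes whose sign turned ran from -0.17 to 0.46 for Psma3, -0.04 to 0.31 for Psma7, -0.04 to 0.68 for Psmb5, -0.05 to 0.78 for Psmb7, -0.37 to 0.68 for Psmb4, -0.01 to 0.28 for Psmc4, -0.20 to 0.20 for Psmc6, -0.54 to 0.49 for Psmd1, -0.31 to 0.14 for Psmd4, -0.07 to 0.48 for Psmd6, -0.50 to 0.22 for Psmd7, -0.13 to 0.14 for Psmd11, -0.36 to 0.50 for Psmd12, -0.57 to 0.19 for Psmd13, -0.56 to 0.59 for Psmd5, -0.25 to 0.97 for Psmd9 and -0.26 to 1.43 for Psmd10. Same-numbered libraries were not shown to be pairs: their deviations from the group means correlated at -0.18, 0.11, 0.17 and 0.37 for numbers 1, 2, 3 and 5. Numbers 2, 3 and 5 each correlated best with their own number in both directions, and number 1 did not.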
